A study of Homo sapiens with 12 samples.

Results

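The comparison described here is that of 2 inhibitors given together with no inhibitor, in 3 lines of diffuse large B cell lymphoma of the activated B cell-like subtype (ABC-DLBCL), a cancer with lasting NF-kB signalling. Its members are the arrays whose treatment label is Combo and those whose label is Control, 6 of the 12 arrays of the study, paired by cell line. OCI-LY3, OCI-HBL1 and OCI-LY10 are established human lines, each with 1 array a group, so that n = 3 a side and the line is the replicate. Combo cells were given 500 nM CPI203, which blocks BET bromodomain proteins, and 50 µM of an inhibitor of the IRAK kinases whose chemical name is not given in the sources used here. Both labels give 24 h, while the treatment protocol has 18 h for CPI203 and 6 h for the IRAK inhibitor. Of Control the label says no more, and whether it held the solvent is not stated. The other arrays are of cells given only CPI203, at the same dose and label time, or only the IRAK inhibitor. RNA came from whole cultures, so fewer cells and less RNA a cell cannot be told apart, and a p-value covers only the spread among the samples at hand.

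BET proteins bind acetylated histones and bring the elongation kinase P-TEFb to promoters and enhancers, where RNA polymerase II is then released to transcribe. In B cells, Toll-like receptors signal through the adaptor MYD88 and the kinases IRAK4 and IRAK1 to the IKK complex, which frees NF-kB to enter the nucleus. The B cell receptor reaches the same IKK complex through the kinase BTK, and both routes are known to be active in this lymphoma subtype.

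RNA levels are given on the log2 scale of the deposited table, and a change is Combo minus Control on that scale, with the moderated standard error (SE) of the limma fit. Values by line are in the order OCI-LY3, OCI-HBL1, OCI-LY10. A level below 4.20, the filter used, is near the floor of the array, and a change that starts or ends there may be larger than measured. Of 18239 genes with a probe set of their own, 13120 were tested. Array medians lay between 4.64 and 4.73, and pairs of the 6 arrays correlated at 0.923 to 0.978. The B cell markers fixed for the check were above the filter in all 6 arrays (5 of 5 measured), with a summed log2 level of 47.0 to 48.1 in Control and 44.2 to 47.0 with Combo. Of the 5 T cell markers measured, CD3D, CD3E and CD2 were below it in all 6, and CD3G and CD5 reached at most 4.998. Of the 4 NK cell markers 3 were above it in all 6, none above 5.44, and no myeloid marker was above 4.81. No fibroblast marker was above it in all 6, but COL3A1 reached 6.65. Red cell markers reached at most 5.10. Of the 4 plasma cell markers 2 were above it in all 6, with a highest level of 11.06. Poly-A RNA added to each sample as a spike-in read higher with Combo by 0.48 ± 0.27 (log2, SD, n = 3). Results of scaling to it are given below, and the cause of the difference was not tested.

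Limma called 4214 of the 13120 genes between Combo and Control, or 32.1%, at an adjusted p below 0.05. Of all genes tested 2023, or 15.4%, rose and 2191, or 16.7%, fell. In 4151 of the called genes the change had 1 direction in all 3 lines, which a test paired by line favours. Of all 13120 genes, called or not, 3597 were higher and 3648 lower in all 3 lines. The Control and Combo arrays did not overlap in 1992 of the called genes and in 2510 of all 13120, called or not. Statements below that groups did not overlap are read beside these counts. At least 2-fold changes were found for 557 risen and 687 fallen genes, and at least 4-fold changes for 68 and 65. The median change of all genes was -0.0031, and that of the called genes was 0.74 for the risen and -0.77 for the fallen. The median size of the change of called genes, without regard to sign, was 0.800, 0.601 and 0.825 in the lines. Scaling each array to its poly-A spike-ins shifted the median gene by -0.48 and changed the split from 2023 risen and 2191 fallen to 511 and 5718. All 2191 fallen genes stayed called on that scale, as did 510 of the risen, while 318 of the risen turned negative. A fit of the 6 arrays alone called 2163 genes, and a test against a fold of 2 called 93. Leaving out OCI-LY3 gave 2072 called genes, leaving out OCI-HBL1 3420 and leaving out OCI-LY10 2232.

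**Figure D1:**
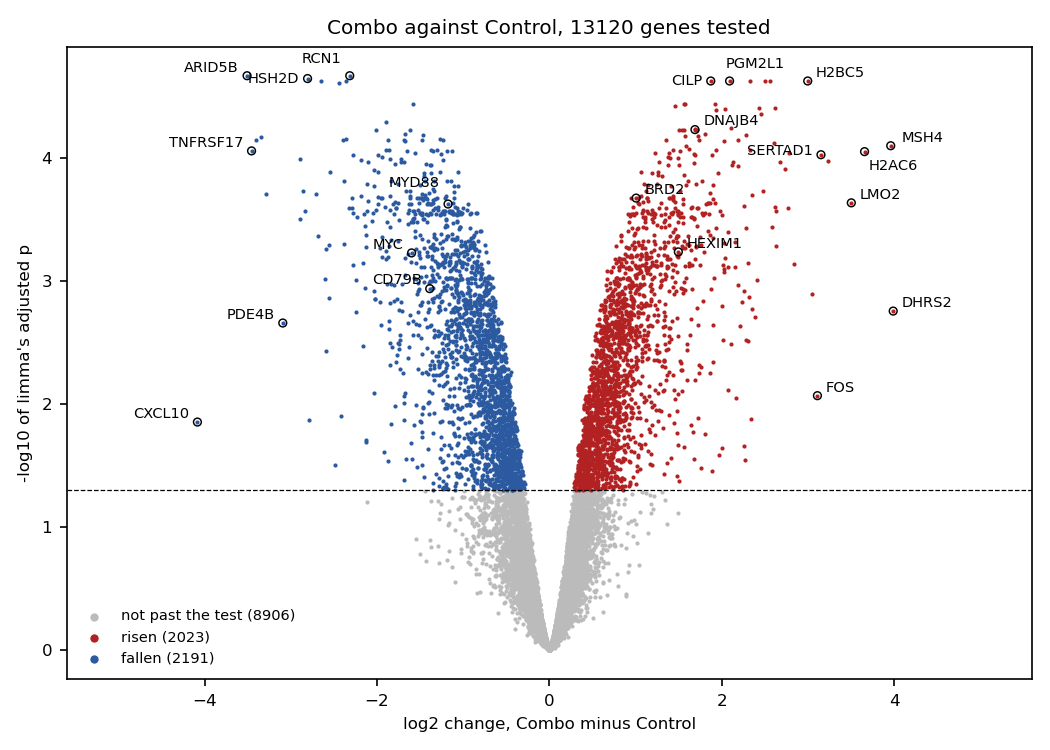
Each point is 1 of 13120 genes, with its log2 change from Control to Combo on the x axis and the negative log10 of limma's adjusted p on the y axis. The 2023 risen genes are red, the 2191 fallen genes blue and the rest grey, the dashed line marks an adjusted p of 0.05, and the named genes are circled.

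Genes of the BET proteins and of P-TEFb moved in both directions. Of 15 tested 6 rose, 1 fell and 8 did not pass, so that 46.7% were called beside 32.1% of all genes. The list's median change of 0.42 turned to -0.06 on the poly-A scale. HEXIM1 encodes the protein that holds P-TEFb inactive, and its RNA is a known marker of BET inhibition. Its log2 level was 8.23, 8.75 and 8.63 in Control and 9.99, 9.62 and 10.48 with Combo. The groups did not overlap, and the rise was 1.497 ± 0.20 (SE, n = 3, adjusted p = 0.00058). HEXIM2, its paralog with the same activity, went from 7.39, 7.05 and 6.94 to 5.88, 5.31 and 5.67. All 3 Combo arrays were thus below all Control arrays, a fall of 1.51 (SE 0.17, adjusted p = 0.00028). BRD2, a BET protein, stood at 9.95, 9.89 and 9.93 in Control and at 11.04, 10.82 and 10.93 with Combo, a rise of 1.01 ± 0.10 (adjusted p = 0.00021) that was nearly the same in each line. BRD3, another member, had a log2 change of 0.32 ± 0.11, short of the threshold (adjusted p = 0.055). AFF4, the scaffold of the super elongation complex that carries P-TEFb, rose by 1.11 ± 0.13 (adjusted p = 0.00031). The P-TEFb kinase gene CDK9 rose by 0.97 ± 0.18 (adjusted p = 0.0030), with 0.44, 1.401 and 1.08 in the lines. Set against CPI203 alone, HEXIM1 differed by -0.32 ± 0.20 (adjusted p = 0.42) and AFF4 by 0.56 ± 0.13 (adjusted p = 0.044), a difference that, like every other from CPI203 given here, was not called without OCI-LY3 or without OCI-LY10. CDK9 did not pass on the poly-A scale. Averaging the probe sets of a gene gave a change of 0.33 for AFF4. Leaving out shared probe sets gave a change of 0.45 for AFF4 (not called, adjusted p = 0.26).

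Of 25 genes of MYD88, IRAK and Toll-like receptor signalling 4 rose, 8 fell and 13 did not pass (median change -0.24). In this list 48% were called, beside 32.1% of all genes. MYD88 stood at 9.76, 9.27 and 9.67 in Control and at 8.57, 7.97 and 8.64 with Combo. No Combo array reached the lowest Control array, and the fall was 1.17 (SE 0.13, n = 3, adjusted p = 0.00024). IRAK1, the kinase that MYD88 recruits through IRAK4, went from 9.85, 9.68 and 9.23 to 8.77, 9.37 and 8.68. The OCI-HBL1 Combo array lay within the Control range, and the fall of 0.65 (SE 0.17) had an adjusted p of 0.015. IRAK2 and IRAK3, the second kinase of the family and its inhibitory member, had changes of 0.11 ± 0.17 and 0.36 ± 0.39 and did not pass (adjusted p = 0.65 and 0.53). Control levels of IRAK2 were 4.23, 4.12 and 4.33, close to the floor. IRAK1 (-0.43, adjusted p = 0.094) was not called without OCI-LY3, nor IRAK1 (adjusted p = 0.089) without OCI-LY10. IRAK1 was not called with the 6 arrays fitted alone.

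TLR9, the endosomal receptor for unmethylated CpG DNA, stood at 6.45, 6.61 and 5.63 in Control and at 4.37, 5.13 and 4.57 with Combo, and the groups did not overlap. Its fall was 1.54 (SE 0.27, adjusted p = 0.0022). TLR10 went from 9.43, 8.83 and 6.05 to 7.39, 6.58 and 4.51, a fall of 1.95 (SE 0.17, adjusted p = 9.9e-05). OCI-LY10 lay below the other lines in both groups, so the groups overlapped while every line was lower with Combo. CD180, a Toll-like receptor homologue of B cells that pairs with MD-1, fell by 2.60 (SE 0.38, adjusted p = 0.00097), with -3.87, -1.55 and -2.39 in the lines. The called rises in this list were in PELI1, a ubiquitin ligase for IRAK1, at 0.71 ± 0.18, in the kinase gene MAP3K7 (TAK1) at 0.54 ± 0.11, in its binding partner TAB3 at 0.90 ± 0.19 and in TOLLIP, an IRAK1 inhibitor, at 0.46 ± 0.12. TLR9 (adjusted p = 0.054), PELI1 (0.37, adjusted p = 0.14), MAP3K7 (adjusted p = 0.052), TAB3 (adjusted p = 0.12) and TOLLIP (adjusted p = 0.083) were not called without OCI-LY3, nor TOLLIP (adjusted p = 0.061) without OCI-HBL1, nor PELI1 (adjusted p = 0.073), MAP3K7 (adjusted p = 0.067), TAB3 (adjusted p = 0.087) and TOLLIP (adjusted p = 0.16) without OCI-LY10. PELI1, MAP3K7 and TAB3 did not pass on the poly-A scale, where the change of TOLLIP was -0.02. PELI1, MAP3K7, TAB3 and TOLLIP were not called with the 6 arrays fitted alone.

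B cell receptor signalling genes had the lowest median of the lists, -0.733, beside -0.0031 for all genes. Interferon-stimulated genes were nearly level with them at -0.732, and scaling by cyclic loess reversed the order, at -0.730 and -0.736. Of 25 tested 13 fell, 1 rose and 11 did not pass, so that 56% were called beside 32.1% of all genes. The medians in the lines were -0.80, -0.48 and -0.79. CD79B encodes one chain of the receptor's signalling pair, and went from 9.71, 11.32 and 10.65 in Control to 8.74, 10.26 and 8.52 with Combo. OCI-HBL1 stayed above the other lines' Combo arrays, so the groups overlapped, and the fall was 1.39 (SE 0.21, adjusted p = 0.0012). BLK, a Src family kinase of B cells, stood at 9.92, 9.75 and 8.51 and then at 8.23, 8.45 and 6.64. No Combo array reached the Control range, with a fall of 1.62 (SE 0.16, adjusted p = 0.00019). BTK, the kinase that links the receptor to NF-kB, moved from 9.36, 9.22 and 9.16 to 8.16, 8.77 and 8.48, again without overlap (fall 0.78, SE 0.16, adjusted p = 0.0054). CD72, an inhibitory receptor, fell by 2.27 (SE 0.32) and FCGR2B, the inhibitory Fc receptor, by 1.56 (SE 0.19). CD81, a tetraspanin of the B cell surface, was the 1 member that rose, at 0.62 ± 0.16 (adjusted p = 0.015). BTK (adjusted p = 0.077) was not called without OCI-LY3, nor CD81 (adjusted p = 0.076) without OCI-HBL1, nor CD81 (adjusted p = 0.12) without OCI-LY10. CD81 did not pass on the poly-A scale. CD81 was not called with the 6 arrays fitted alone. The mean over probe sets was -0.91 for CD79B and -1.14 for CD72.

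Genes of PI3K, AKT and mTOR moved both ways, with 6 of 24 risen and 7 fallen, or 54.2% called beside 32.1% of all genes. PIK3CD, the catalytic subunit p110-delta of leukocytes, went from 10.46, 9.55 and 9.83 to 8.86, 8.87 and 7.36. All Combo arrays were below all Control arrays, and the fall was 1.58 (SE 0.27, adjusted p = 0.0021). PIK3CG, the p110-gamma subunit, fell by 1.54 (SE 0.21), RPTOR, the mTORC1 scaffold, by 0.93 (SE 0.14) and MLST8, a subunit of both mTOR complexes, by 0.90 (SE 0.21). PIK3R1, the regulatory subunit p85-alpha, rose from 9.42, 8.61 and 8.24 to 10.51, 9.60 and 9.996, by 1.28 ± 0.17 (adjusted p = 0.00054) and with no overlap. PDPK1, the kinase that activates AKT, rose by 1.21 ± 0.14 and SESN1, an inhibitor of mTORC1, by 1.14 ± 0.13. PDE4B, which breaks down cyclic AMP, had one of the largest falls of all genes, from 9.68, 9.02 and 8.504 to 8.60, 5.18 and 4.16. OCI-LY3 kept a level within the Control range, while OCI-HBL1 and OCI-LY10 ended below it, OCI-LY10 also below the filter, and the change was -3.09 ± 0.54 (adjusted p = 0.0022). MLST8 (adjusted p = 0.079) was not called without OCI-LY3. The value averaged over probe sets was -0.78 for PIK3CD, -0.15 for RPTOR (not called, adjusted p = 0.23) and -1.76 for PDE4B. Without shared probe sets the value was -0.87 for PIK3CG (not called, adjusted p = 0.067).

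The NF-kB subunit genes themselves did not move together. Of 24 subunit, kinase and inhibitor genes 5 rose, 4 fell and 15 did not pass, so that 37.5% were called beside 32.1% of all genes. NFKB1, NFKB2, RELA and RELB had changes of 0.16 ± 0.15, -0.41 ± 0.18, 0.07 ± 0.17 and -0.17 ± 0.13, and none passed (adjusted p between 0.12 and 0.81). REL, the c-Rel subunit, stood at 9.23, 9.75 and 8.996 in Control and at 10.37, 9.75 and 10.47 with Combo. It rose in OCI-LY3 and OCI-LY10 and was level in OCI-HBL1, and the rise was 0.87 ± 0.24 (adjusted p = 0.019). NFKBIA encodes the inhibitor I-kappa-B-alpha and is itself a target of NF-kB. It went from 12.31, 11.56 and 11.32 to 13.32, 11.95 and 12.41, higher in each line but with overlap between the groups, a rise of 0.83 ± 0.21 (adjusted p = 0.013). MAP3K14, the kinase of the non-canonical pathway, rose by 0.72 ± 0.13. BCL3, a nuclear I-kappa-B protein, fell by 1.84 (SE 0.47), IKBKE, an IKK-related kinase, by 1.496 (SE 0.24) and TNIP1, which works with A20 to restrain the pathway, by 0.72 (SE 0.14). REL (adjusted p = 0.17), NFKBIA (adjusted p = 0.11), MAP3K14 (adjusted p = 0.053) and BCL3 (adjusted p = 0.14) were not called without OCI-LY3, nor REL (0.57, adjusted p = 0.21), NFKBIA (adjusted p = 0.13), BCL3 (adjusted p = 0.10) and TNIP1 (adjusted p = 0.067) without OCI-LY10. REL, NFKBIA and MAP3K14 did not pass on the poly-A scale. REL was not called with the 6 arrays fitted alone. With all probe sets of a gene averaged the change was 0.39 for MAP3K14 and -0.49 for BCL3. With shared probe sets left out the change was -0.22 for BCL3 (not called, adjusted p = 0.38).

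Of 32 target genes of NF-kB 10 fell, 8 rose and 14 did not pass, with a median of -0.47. In this list 56.2% were called, beside 32.1% of all genes. The medians of the lines were -0.68, -0.08 and -0.37. TRAF1, an adaptor of TNF receptors, went from 8.79, 5.53 and 7.08 to 5.73, 4.35 and 4.57. Each line fell, by 2.25 on average (SE 0.38, adjusted p = 0.0018), although the highest Combo array exceeded the lowest Control array. ICAM1, the adhesion molecule, moved from 8.94, 6.74 and 6.74 to 6.37, 5.42 and 5.05 without overlap, a fall of 1.86 (SE 0.24, adjusted p = 0.00052). GADD45B, a stress gene induced by NF-kB, went the other way, from 9.97, 9.79 and 10.33 to 11.28, 11.20 and 11.91. All its Combo arrays exceeded all Control arrays, and the rise was 1.44 ± 0.15 (adjusted p = 0.00020). CD83, an activation marker, and CCR7, the homing receptor to lymph nodes, rose by 0.71 ± 0.20 and 0.79 ± 0.22. TNFAIP3, which encodes the inhibitor A20, and NFKBIZ, a nuclear cofactor, had changes of -0.36 ± 0.31 and 0.33 ± 0.26 and did not pass (adjusted p = 0.41 and 0.37). In RefSeq promoters (GRCh38.p14, the 250 bases before the start), an NF-kB site on either strand was found in 7 of the 28 targets with a listed promoter and in 5.96% of the 10679 tested genes with one. CD83 (adjusted p = 0.059) was not called without OCI-LY3, nor CCR7 (adjusted p = 0.15) without OCI-HBL1, nor CD83 (adjusted p = 0.18) and CCR7 (adjusted p = 0.11) without OCI-LY10. CD83 and CCR7 did not pass on the poly-A scale. CD83 and CCR7 were not called with the 6 arrays fitted alone and CCR7 with the line as a random block.

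**Figure D2:**
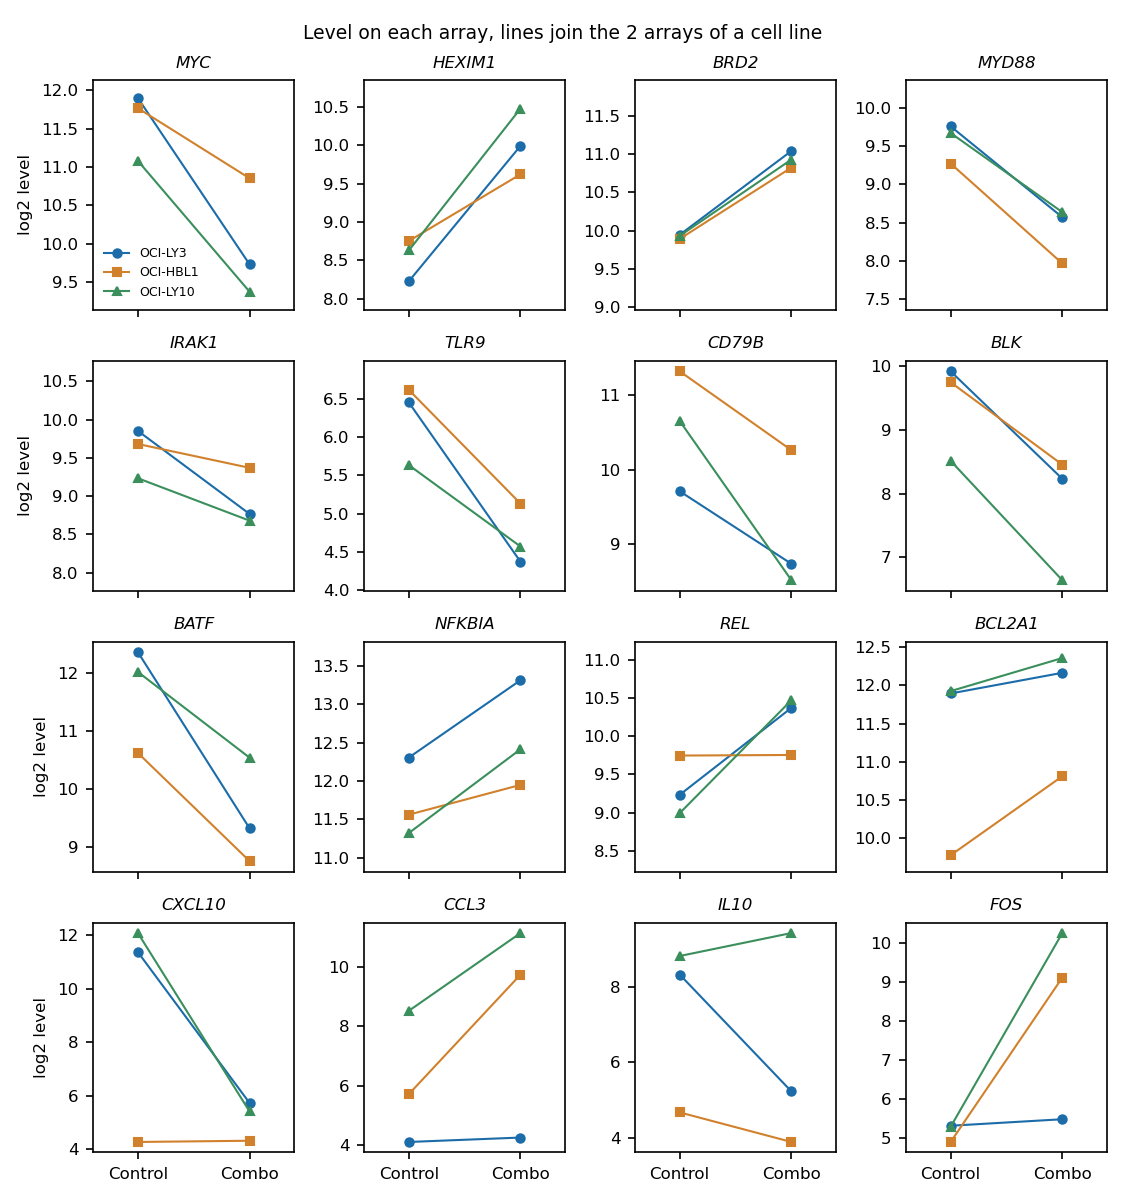
Each panel shows the log2 level of 1 gene on the 3 Control and the 3 Combo arrays, with a line joining the 2 arrays of each cell line, and the y axis differs between panels. MYC, MYD88 and BLK are lower and HEXIM1 and BRD2 higher in all 3 lines with no overlap, CXCL10 is lower with Combo in OCI-LY3 and OCI-LY10 and at the floor in OCI-HBL1, and IL10 moves in different directions.

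Levels of several cytokine and chemokine genes differed widely between lines. CXCL10, a chemokine induced by interferon and NF-kB, stood at 11.36, 4.28 and 12.07 in Control and at 5.73, 4.32 and 5.41 with Combo. OCI-HBL1 was near the floor in both arrays, while the other lines dropped from high levels, and the change over the lines was -4.08 ± 1.04 (adjusted p = 0.014). CCL3, a chemokine of activated B cells, was near the floor in OCI-LY3 in both groups and rose elsewhere, from 4.10, 5.71 and 8.52 to 4.25, 9.74 and 11.14 (2.26 ± 0.63, adjusted p = 0.022). IL10 and IL6, cytokines that feed back on ABC-DLBCL cells through STAT3, did not pass. IL10 went from 8.32, 4.67 and 8.82 to 5.23, 3.88 and 9.42, down in OCI-LY3 and OCI-HBL1 and up in OCI-LY10 (-1.09 ± 0.71, adjusted p = 0.28). IL6 had a change of -1.16 ± 0.57 (adjusted p = 0.15), with -1.59, -0.24 and -1.64 in the lines. In all, 10 of 26 chemokine and trafficking genes fell and 3 rose, or 50% called beside 32.1% of all genes. GPR183, the oxysterol receptor that guides B cells in follicles, fell by 1.49 (SE 0.38). CXCL10 (adjusted p = 0.15) and GPR183 (adjusted p = 0.15) were not called without OCI-LY3, nor CCL3 (1.38, adjusted p = 0.15) without OCI-HBL1, nor CXCL10 (adjusted p = 0.16), CCL3 (adjusted p = 0.12) and GPR183 (adjusted p = 0.079) without OCI-LY10. The change of CXCL10 was -6.15 without OCI-HBL1. CXCL10 and CCL3 were not called with the 6 arrays fitted alone and CCL3 and GPR183 with the line as a random block.

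Some cytokine receptor genes fell in every line. Of 28 JAK-STAT3 and cytokine receptor genes 6 fell and 1 rose, and 21 did not pass. The share called was 25%, below the 32.1% of all genes, and 21.4% fell, beside 16.7% of all genes. IL2RB, the beta chain shared by the IL-2 and IL-15 receptors, stood at 9.69, 7.91 and 9.46 and then at 7.55, 6.07 and 6.995. IL6R moved from 6.92, 6.20 and 6.52 to 5.11, 4.57 and 4.54. IL21R moved from 9.78, 9.06 and 8.58 to 8.14, 7.55 and 6.97. None of these receptors had overlapping groups, and they fell by 2.15 (SE 0.25, adjusted p = 0.00028), 1.81 (SE 0.21, adjusted p = 0.00029) and 1.59 (SE 0.19, adjusted p = 0.00031). IL15RA, the receptor chain that binds IL-15, fell by 1.86 (SE 0.33, adjusted p = 0.0024), with -1.76, -1.53 and -2.30 in the lines. STAT3, the transcription factor below them, had a log2 change of -0.14 ± 0.23, short of the threshold (adjusted p = 0.68). Averaging the probe sets of a gene gave a change of -1.09 for IL15RA. Leaving out shared probe sets gave a change of -0.66 for IL6R and -0.54 for IL15RA (not called, adjusted p = 0.11).

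Of the TNF receptor, TRAF and IAP genes 6 of 23 fell and 2 rose, or 34.8% called, near the 32.1% of all genes. TRAF5, an adaptor of CD40 and other TNF receptors, fell by a like amount in each line, from 9.69, 8.59 and 8.38 to 7.09, 5.61 and 6.02 (fall 2.65, SE 0.15, adjusted p = 2.4e-05). CFLAR encodes c-FLIP, which blocks caspase-8, and went from 12.38, 11.79 and 12.14 to 11.05, 10.85 and 10.60, a fall of 1.27 (SE 0.21, adjusted p = 0.0017). TNFSF13B, the B cell survival factor BAFF, rose from 4.29, 3.91 and 5.21 to 6.78, 6.35 and 8.03, by 2.59 ± 0.31 (adjusted p = 0.00036). In these 3 genes no Combo array lay within the Control range. TNFRSF13B, the BAFF and APRIL receptor TACI, fell by 1.17 (SE 0.16) and TNFRSF17, the receptor BCMA, by 3.45 (SE 0.29), the latter to 3.91, 6.27 and 3.61. Among costimulatory surface genes 8 of 24 fell and 1 rose, or 37.5% called. CD80 was at -1.502 ± 0.20 and CD70 at -1.37 ± 0.24. CD40 and CD274, which encodes PD-L1, had changes of -0.02 ± 0.13 and 0.07 ± 0.15 and did not pass (adjusted p = 0.91 and 0.77). The mean over probe sets was -0.64 for CFLAR.

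MYC, which drives growth and ribosome production, went from 11.90, 11.77 and 11.08 in Control to 9.73, 10.85 and 9.37 with Combo. All Combo arrays were below all Control arrays, with the smallest step in OCI-HBL1, and the fall was 1.60 (SE 0.21, n = 3, adjusted p = 0.00059). MXD1, which competes with MYC for the partner MAX, rose from 4.10, 5.49 and 5.14 to 7.19, 6.90 and 7.80, by 2.38 ± 0.41 (adjusted p = 0.0020) and without overlap. Of the other members of the network, MXD3, a paralog of MXD1, rose by 1.00 ± 0.22 and MLX, a partner of the MondoA factor, fell by 0.53 (SE 0.13). MAX had a log2 change of 0.26 ± 0.15, short of the threshold (adjusted p = 0.22). The list's median of 0.26, over 11 genes, turned to -0.22 on the poly-A scale. CPI203 alone gave MYC a change of -0.57 ± 0.21 against the same Control arrays, which did not pass (adjusted p = 0.11), and the difference between Combo and CPI203 was -1.03 ± 0.21 (adjusted p = 0.031). MXD3 (adjusted p = 0.11) was not called without OCI-LY3, nor MLX (adjusted p = 0.077) without OCI-HBL1, nor MLX (adjusted p = 0.12) without OCI-LY10. MXD3 did not pass on the poly-A scale. MLX was not called with the 6 arrays fitted alone. The value averaged over probe sets was 1.42 for MXD1 and 0.43 for MXD3.

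Ribosome biogenesis genes, which process ribosomal RNA and assemble the subunits, fell broadly. Of 37 tested 27 fell, none rose (0 at an unadjusted p below 0.05 in limma) and 10 did not pass, with a median of -0.66 and medians of -0.75, -0.60 and -0.74 in the lines. The share that fell was 73%, beside 16.7% of all genes. TSR1, a maturation factor of the small subunit, went from 11.14, 10.63 and 11.08 to 9.78, 9.39 and 9.5. RRS1, an assembly factor of the large subunit, went from 10.32, 10.14 and 9.87 to 8.75, 8.95 and 8.52. WDR12, of the PeBoW complex of large subunit assembly, went from 10.54, 11.10 and 10.87 to 9.34, 10.17 and 9.49. The groups were apart for all 3 genes, which fell by 1.39 (SE 0.14, adjusted p = 0.00019), 1.37 (SE 0.11, adjusted p = 8.6e-05) and 1.17 (SE 0.13, adjusted p = 0.00027). Against CPI203 alone, where 4.66% of all genes were called in either direction, 12 of the 37 were lower with Combo, with TSR1 at -0.75 ± 0.14, RRS1 at -0.87 ± 0.11 and WDR12 at -0.79 ± 0.13. The changes from the same Control arrays with CPI203 alone were -0.64 ± 0.14, -0.50 ± 0.11 and -0.37 ± 0.13 (adjusted p = 0.019, 0.021 and 0.090). In their promoters the E-box CACGTG, the letters that MYC and MAX bind and the same on both strands, was found in 4 of the 30 genes with a RefSeq promoter, or 13.3%, and in 8.77% of all tested genes with one. It was found in 3 of the 23 called members with a promoter, in 10.5% of all fallen genes and in 9.28% of all risen genes, and the difference was not tested. With all probe sets of a gene averaged the change was -0.71 for TSR1 and -0.75 for WDR12.

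**Figure D3:**
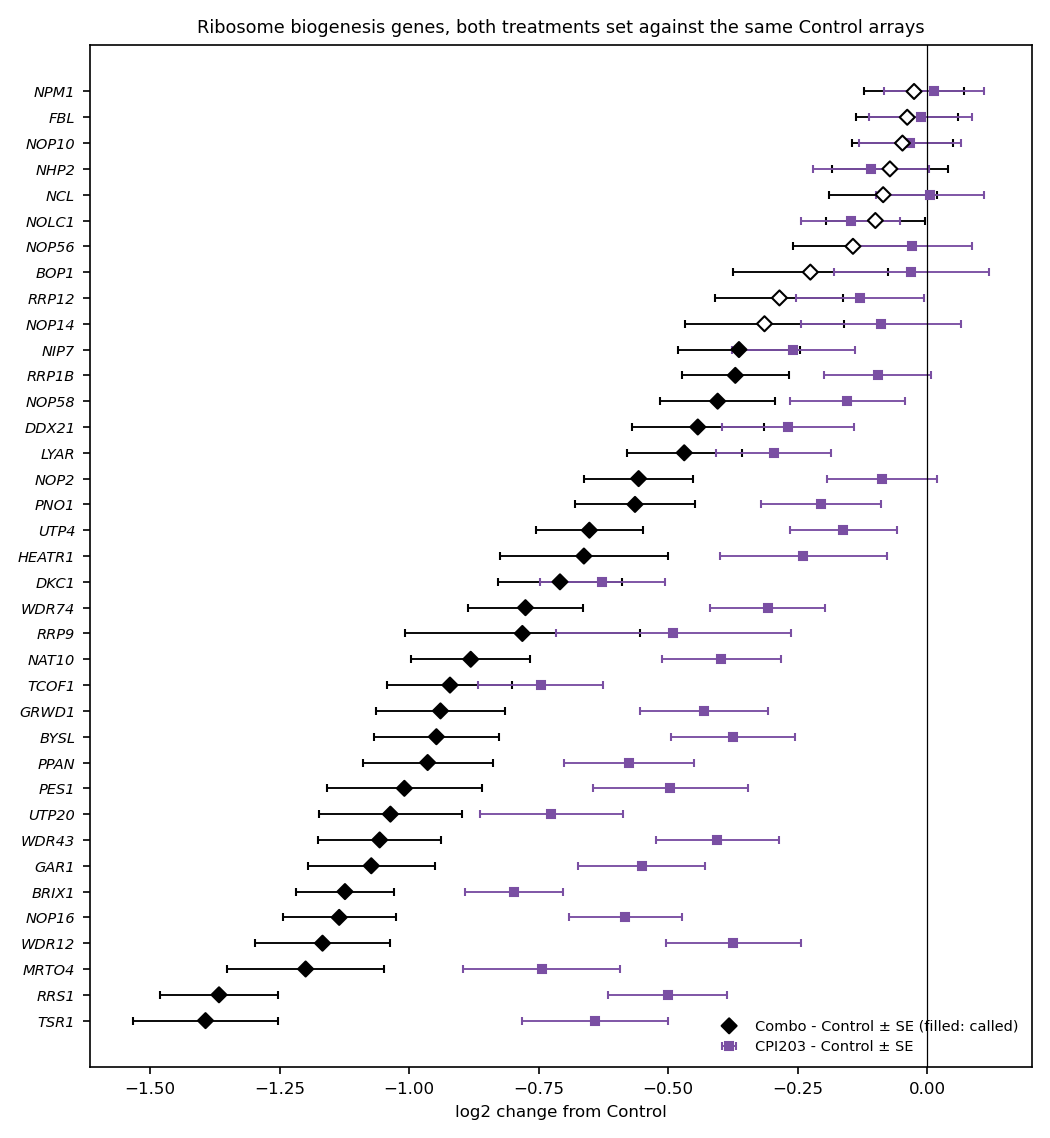
Black diamonds show the log2 change from Control to Combo and purple squares that from Control to CPI203 alone, with SE as bars, for 37 ribosome biogenesis genes on the y axis. Both sets share the Control arrays, filled diamonds mark the 27 genes called with Combo, and TSR1 and RRS1 have the lowest Combo values.

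RNA polymerase I and III genes fell in 15 of 30 cases and rose in none (1 at an unadjusted p below 0.05 in limma), with a median of -0.32. The share that fell was 50%, beside 16.7% of all genes. UBTF, which opens ribosomal DNA for polymerase I, went from 8.996, 8.70 and 7.87 to 7.52, 7.25 and 5.96, and POLR1A, the largest polymerase I subunit, from 9.21, 8.97 and 7.80 to 7.497, 7.42 and 6.79. Neither had overlapping groups, and the falls were 1.61 (SE 0.19, adjusted p = 0.00033) and 1.42 (SE 0.15, adjusted p = 0.00022). POLR1B and POLR3G, other polymerase subunits, fell by 1.26 (SE 0.16) and 1.38 (SE 0.16). Of nucleotide, folate and polyamine genes 11 of 27 fell and 2 rose, or 48.1% called beside 32.1% of all genes. SLC19A1, the folate carrier, fell from 7.82, 8.26 and 7.13 to 5.39, 6.34 and 5.17, by 2.10 (SE 0.19, adjusted p = 0.00011), with the groups apart. PFAS, a purine synthesis enzyme, fell by 1.11 (SE 0.13) and MTHFD1L, of mitochondrial folate metabolism, by 1.13 (SE 0.15). Of 30 cytosolic ribosomal protein genes, the structural parts of the ribosome, limma called none in either direction (1 were higher and 0 lower at an unadjusted p below 0.05), with a median of 0.05 on the deposited scale, which flips to -0.43 on the poly-A scale. Averaging the probe sets of a gene gave a change of -1.15 for SLC19A1. Without shared probe sets the value was -1.02 for UBTF, -0.78 for POLR3G and -0.83 for SLC19A1.

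Transcription factor genes of B cells fell in 10 of 26 cases and rose in 4, or 53.8% called beside 32.1% of all genes. ARID5B, a chromatin regulator, went from 8.46, 9.10 and 9.88 to 4.43, 5.85 and 6.64. IKZF1, the lymphoid factor Ikaros, went from 10.98, 10.16 and 11.30 to 8.58, 8.49 and 8.52, so that the lines met at nearly 1 level with Combo. BATF, an AP-1 family partner of IRF4, went from 12.37, 10.63 and 12.03 to 9.32, 8.76 and 10.55. In none of the 3 did the groups overlap, and they fell by 3.51 (SE 0.17, adjusted p = 2.2e-05), 2.29 (SE 0.25, adjusted p = 0.00025) and 2.13 (SE 0.28, adjusted p = 0.00053). LMO2, an adaptor typical of germinal centre B cells, rose from the floor, 3.91, 3.46 and 3.58, to 7.25, 6.11 and 8.10 (3.50 ± 0.37, adjusted p = 0.00023). MYBL1, another germinal centre gene, rose by 1.86 ± 0.39, with 2.36, 0.80 and 2.42 in the lines. Of 4 germinal centre markers, LMO2 and MYBL1 were thus higher, while SERPINA9 fell by 0.84 (SE 0.24) and MME, at -0.37 ± 0.20, did not pass (adjusted p = 0.18). SERPINA9 and MME were added after their values were seen. IRF4, PRDM1, BCL6 and PAX5, which regulate B cell and plasma cell states, did not pass. IRF4 had a change of -0.35 ± 0.26 (adjusted p = 0.35), PRDM1 of -0.25 ± 0.20 (adjusted p = 0.37), BCL6 of -0.08 ± 0.14 (adjusted p = 0.71) and PAX5 of 0.15 ± 0.22 (adjusted p = 0.66). For PAX5 the other 7 probe sets had the opposite sign, and 2 of them were called. MYBL1 (adjusted p = 0.097) and SERPINA9 (-0.48, adjusted p = 0.22) were not called without OCI-LY3, nor MYBL1 (adjusted p = 0.051) and SERPINA9 (adjusted p = 0.089) without OCI-LY10. SERPINA9 was not called with the 6 arrays fitted alone. The mean over probe sets was 1.76 for LMO2. With shared probe sets left out the change was 0.02 for LMO2 (not called, adjusted p = 0.95).

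Genes that mark the ABC subtype had a median of -0.66. They fell in 13 of 23 cases, against 1 that rose, or 60.9% called beside 32.1% of all genes. The 1 that rose was MYBL1, which is also on the list of germinal centre markers above, so its place among ABC genes is in doubt. IL16, a secreted cytokine, went from 11.07, 6.94 and 10.05 to 8.10, 5.47 and 6.44, and the potassium channel gene KCNA3 from 7.44, 5.14 and 8.16 to 5.67, 3.6 and 5.97. Both were lowest in OCI-HBL1 already in Control, so the groups overlapped although each line fell, by 2.68 (SE 0.33, adjusted p = 0.00044) and 1.83 (SE 0.18, adjusted p = 0.00015). Of the plasma cell and secretory genes 6 of 24 fell and 3 rose, or 37.5% called beside 32.1% of all genes. CREB3L2, a membrane-bound factor of the secretory pathway, fell from 10.54, 11.14 and 11.47 to 9.47, 9.82 and 10.38, by 1.16 (SE 0.13, adjusted p = 0.00028). The value averaged over probe sets was -1.43 for IL16 and -0.76 for CREB3L2.

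Histone genes had the largest median rise of all lists. Of 24 tested 21 rose, none fell (0 at an unadjusted p below 0.05 in limma) and 3 did not pass, with a median of 1.60 and medians of 1.49, 0.75 and 1.86 in the lines. The share that rose was 87.5%, beside 15.4% of all genes. These genes share near-identical sequences, so a probe set may measure more than 1 copy. H2AC6, an H2A gene of the large cluster on chromosome 6, went from 5.28, 4.85 and 6.81 in Control to 9.22, 8.45 and 10.25 with Combo. H2BC5, an H2B gene of that cluster, went from 6.55, 4.99 and 7.55 to 9.93, 7.76 and 10.40. H2BC21, an H2B gene on chromosome 1, went from 5.92, 5.14 and 6.06 to 9.58, 6.63 and 10.05. Every Combo array exceeded every Control array in each of the 3, and the rises were 3.66 ± 0.31 (adjusted p = 8.9e-05), 2.998 ± 0.18 (adjusted p = 2.4e-05) and 3.05 ± 0.48 (adjusted p = 0.0013). H2BC12 was already high and rose from 9.63, 7.49 and 11.47 to 12.39, 11.68 and 13.02 (2.84 ± 0.39, adjusted p = 0.00073), again without overlap. H2BC8 rose in OCI-HBL1 and OCI-LY10, while its change in OCI-LY3 was 0.08, near the floor of the array (2.27 ± 0.67, adjusted p = 0.028). H2BC8 (adjusted p = 0.17) was not called without OCI-HBL1, nor H2BC8 (1.297, adjusted p = 0.12) without OCI-LY10. H2BC8 was not called with the 6 arrays fitted alone. With all probe sets of a gene averaged the change was 1.07 for H2BC21.

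**Figure D4:**
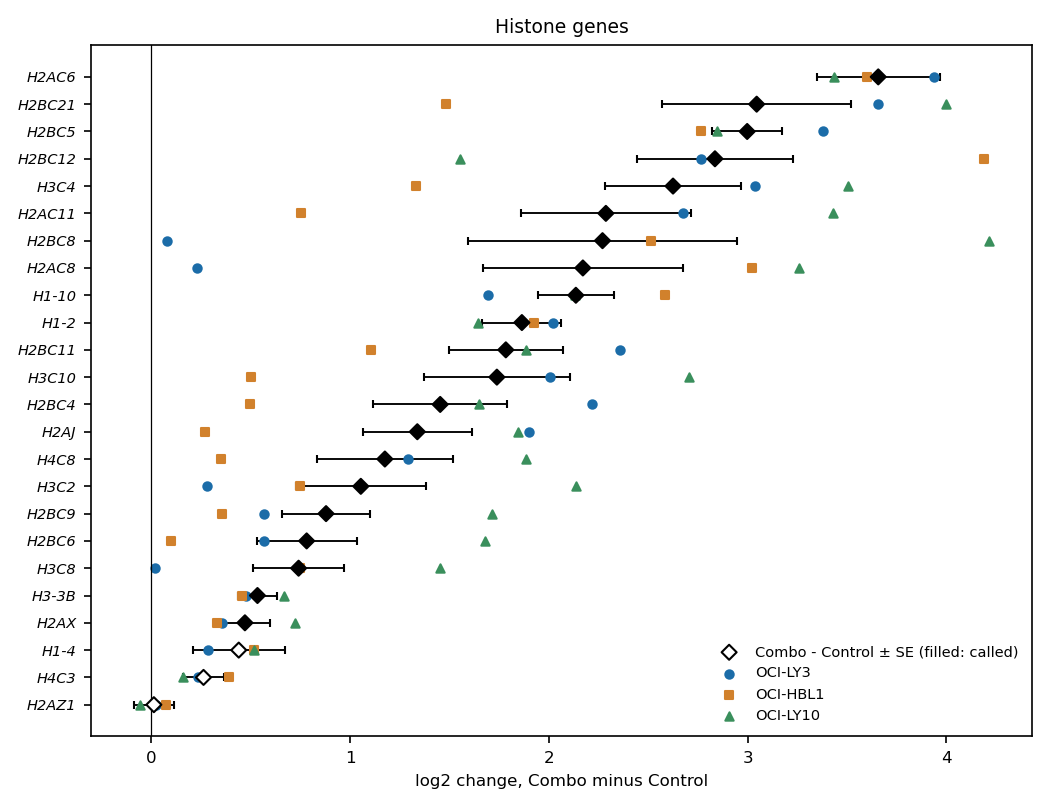
Log2 change from Control to Combo on the x axis for 24 histone genes, with black diamonds for the fitted change and its SE (filled where called) and coloured points for each line. The 21 called genes are all to the right of 0, OCI-HBL1 is the lowest line for H2BC21 and the highest for H2BC12, and H2BC8 is near 0 in OCI-LY3.

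The promoters of the 4 histone genes that rose most are shown because they carry a TATA box and CCAAT boxes, the elements known from replication-dependent histone genes. The letters TATAAA were found on either strand in 17 of 23 histone genes with a RefSeq promoter, or 73.9%, against 6.44% of all tested genes with one. CCAAT or its reverse complement ATTGG, counted on its own whether or not it overlapped TATAAA, was found in 21, or 91.3%, against 35.0%. Among the 21 called histone genes the shares were 71.4% for TATAAA and 90.5% for CCAAT. These 21 make up nearly all of the 23, so the shares could hardly differ and do not compare called genes with others. H1-4 and H2AZ1, which did not pass, held both. Among all risen genes CCAAT was found in 41.0% of promoters and among all fallen genes in 31.8%. Each sequence is the 150 bases before the RefSeq start (GRCh38.p14), read along the gene's strand, with the matches of both motifs in capitals. H2AC6 lies on the + strand at chr6:26124022-26124171, H2BC5 on the + strand at chr6:26157971-26158120, H2BC12 on the - strand at chr6:27146859-27147008 and H2BC21 on the - strand at chr1:149886683-149886832.
H2AC6: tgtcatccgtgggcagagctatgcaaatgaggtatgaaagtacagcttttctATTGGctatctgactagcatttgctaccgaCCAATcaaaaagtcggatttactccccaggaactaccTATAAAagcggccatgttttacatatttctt
H2BC21: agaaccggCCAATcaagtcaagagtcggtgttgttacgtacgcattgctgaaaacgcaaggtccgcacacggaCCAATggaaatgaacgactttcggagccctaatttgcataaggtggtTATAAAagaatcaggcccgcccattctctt
H2BC5: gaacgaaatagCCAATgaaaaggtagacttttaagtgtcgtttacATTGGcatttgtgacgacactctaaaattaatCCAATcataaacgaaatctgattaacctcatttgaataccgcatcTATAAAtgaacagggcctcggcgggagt
H2BC12: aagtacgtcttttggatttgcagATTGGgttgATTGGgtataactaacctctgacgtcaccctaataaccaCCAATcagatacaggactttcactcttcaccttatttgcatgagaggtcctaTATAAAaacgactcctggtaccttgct
In each of the 4, TATAAA stands close to the start and the CCAAT letters further upstream.

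BCL2 family genes did not move as a group, with 6 of 20 risen, 3 fallen and a median of -0.02. In this list 45% were called, beside 32.1% of all genes. BMF, a BH3-only protein that promotes cell death, went from 8.41, 8.14 and 8.29 to 6.17, 5.75 and 5.61. Its groups were far apart, and the fall of 2.44 (SE 0.15, adjusted p = 2.5e-05) was even across the lines. Of its 3 probe sets, 1 had a change of 0.06. BID, the BH3-only protein cut by caspase-8, fell by 1.06 (SE 0.19, adjusted p = 0.0023). Of the survival genes, MCL1 rose from 11.996, 10.68 and 11.70 to 12.52, 11.36 and 12.30 (0.60 ± 0.15, adjusted p = 0.013). BCL2A1, an NF-kB target, rose by 0.58 ± 0.17 (adjusted p = 0.026), most in OCI-HBL1, where its Control level was lowest. BCL2 and BCL2L1, which encodes BCL-XL, had changes of 0.17 ± 0.16 and -0.62 ± 0.37 and did not pass (adjusted p = 0.46 and 0.24). PMAIP1, the BH3-only protein NOXA, rose by 0.74 ± 0.17, while BBC3 (PUMA) and BCL2L11 (BIM) had changes of -0.33 ± 0.24 and 0.14 ± 0.27 and did not pass (adjusted p = 0.32 and 0.74). For BCL2L11 1 other probe set was called in the opposite direction. MCL1 (adjusted p = 0.072) and PMAIP1 (adjusted p = 0.079) were not called without OCI-LY3, nor BCL2A1 (0.35, adjusted p = 0.23) without OCI-HBL1, nor MCL1 (adjusted p = 0.095), BCL2A1 (adjusted p = 0.090) and PMAIP1 (adjusted p = 0.060) without OCI-LY10. MCL1, BCL2A1 and PMAIP1 did not pass on the poly-A scale. BCL2A1 was not called with the line as a random block and BCL2A1 with the 6 arrays fitted alone. Averaging the probe sets of a gene gave a change of -0.71 for BMF and 0.39 for MCL1.

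Cell cycle genes of the G1 phase fell in 10 of 27 cases and rose in 6, or 59.3% called beside 32.1% of all genes. CDKN2D, the CDK4 and CDK6 inhibitor p19, went from 6.53, 6.15 and 5.94 to 8.98, 7.93 and 7.40, and CDK4 itself from 10.95, 11.24 and 11.50 to 9.81, 10.56 and 10.61. Groups were apart for both, with a rise of 1.89 ± 0.20 (adjusted p = 0.00022) and a fall of 0.91 (SE 0.13, adjusted p = 0.00094). GADD45A, a growth arrest gene, rose by 1.86 ± 0.21, CDKN1A, which encodes p21, by 0.76 ± 0.21, and the activator E2F2 fell by 1.53 (SE 0.25). CCND2, the D-type cyclin of these cells, fell by 1.16 (SE 0.27), with -1.17, -0.31 and -1.99 in the lines. Of DNA replication genes 18 of 40 fell and 4 rose, or 55% called beside 32.1% of all genes. Of DNA repair genes 7 of 27 fell, or 25.9% called, and none rose (1 at an unadjusted p below 0.05 in limma). MCM2, of the replicative helicase, fell by 1.03 (SE 0.14, adjusted p = 0.00072), POLE2, of polymerase epsilon, by 1.5 (SE 0.17), POLA2, of the primase complex, by 1.19 (SE 0.25) and UNG, the uracil glycosylase that acts in antibody diversification, by 1.19 (SE 0.18). Mitosis genes had 4 risen and 4 fallen of 29, or 27.6% called, with CDC25C at 0.87 ± 0.14 and BUB1B at -0.77 ± 0.14. p53 target genes had 8 risen and 3 fallen of 23, or 47.8% called, and their median of 0.38 turned to -0.09 on the poly-A scale. TIGAR, a regulator of glycolysis, rose from 8.44, 7.73 and 9.05 to 9.97, 9.69 and 10.68 (1.71 ± 0.13, adjusted p = 5.9e-05), with all Combo arrays above all Control arrays. TP53INP1, a p53 cofactor, rose by 1.34 ± 0.27, and TRIAP1, a survival factor, fell by 0.72 (SE 0.13). CDKN1A (adjusted p = 0.056), CCND2 (adjusted p = 0.092), POLA2 (adjusted p = 0.074) and TP53INP1 (adjusted p = 0.075) were not called without OCI-LY3, nor CDKN1A (0.47, adjusted p = 0.16) without OCI-HBL1, nor CDKN1A (adjusted p = 0.059) and CCND2 (-0.74, adjusted p = 0.095) without OCI-LY10. CDKN1A and CDC25C did not pass on the poly-A scale. CDKN1A was not called with the line as a random block and CDKN1A, CCND2, POLA2 and BUB1B with the 6 arrays fitted alone. The mean over probe sets was -0.78 for E2F2, 0.95 for TIGAR and 0.70 for TP53INP1. Leaving out shared probe sets gave a change of -0.03 for E2F2 (not called, adjusted p = 0.94) and -0.55 for CCND2.

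Immediate early genes, which respond to signals without new protein synthesis, rose in 10 of 26 cases and fell in none (0 at an unadjusted p below 0.05 in limma). The share that rose was 38.5%, beside 15.4% of all genes, and the list's median of 0.46 flipped to -0.04 on the poly-A scale. FOS, which pairs with JUN to form AP-1, stood at 5.31, 4.90 and 5.29 in Control and at 5.48, 9.10 and 10.24 with Combo. It stayed low in OCI-LY3 and rose steeply in the other lines, by 3.11 ± 0.71 over the 3 (adjusted p = 0.0086). EGR1, a zinc finger factor, went from 4.15, 8.78 and 8.86 to 5.21, 10.79 and 11.51 (1.91 ± 0.28, adjusted p = 0.00094), with overlap between the groups. IER3, an early gene linked to cell survival, rose evenly, from 4.55, 5.11 and 6.09 to 6.09, 6.54 and 7.42 (1.44 ± 0.12, adjusted p = 8.6e-05). JUN had a log2 change of 0.28 ± 0.32, with -0.53, 0.52 and 0.87 in the lines, and fell short of the threshold (adjusted p = 0.55). FOS (adjusted p = 0.11) was not called without OCI-HBL1, nor FOS (adjusted p = 0.11) without OCI-LY10. FOS was not called with the 6 arrays fitted alone and EGR1 with the line as a random block.

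Lysosome and autophagy genes rose in 12 of 27 cases and fell in 2, or 51.9% called beside 32.1% of all genes. Their median of 0.40 turned to -0.08 on the poly-A scale. NEU1, the lysosomal sialidase, went from 7.30, 8.47 and 7.48 to 9.71, 10.06 and 10.03, and MAP1LC3B, the autophagosome protein LC3, from 8.39, 8.89 and 8.74 to 10.34, 9.74 and 10.46. No array of one group lay within the other, and the rises were 2.19 ± 0.2 (adjusted p = 0.00012) and 1.51 ± 0.20 (adjusted p = 0.00060). WIPI1, which helps form autophagosomes, rose by 1.27 ± 0.25 and FNIP1, a folliculin partner at the lysosome, by 1.39 ± 0.14. TFEB, the transcription factor that activates lysosomal genes, fell by 1.22 (SE 0.24, adjusted p = 0.0038). Cholesterol genes were split, with 5 risen and 5 fallen of 22, or 45.5% called. NPC1, which exports cholesterol from lysosomes, rose by 1.63 ± 0.23, MYLIP, a ubiquitin ligase for lipoprotein receptors, by 1.46 ± 0.18 and INSIG1, which restrains the pathway, by 0.88 ± 0.13, while DHCR7, which makes the last step of synthesis, fell by 0.69 (SE 0.12). ATF4 and integrated stress response genes had 7 risen and 6 fallen of 29, or 44.8% called. SESN2, a leucine sensor, was at 1.51 ± 0.18 and PPP1R15A, which restores translation after stress, at 0.94 ± 0.16. TRIB3, an inhibitor of AKT, was at -0.68 ± 0.16 and XPOT, a tRNA exporter, at -0.92 ± 0.11. NRF2 target genes had 7 risen and 2 fallen of 21, or 42.9% called. ABCC2, an export pump for conjugates, rose by 1.80 ± 0.24, SRXN1, which repairs peroxiredoxins, by 1.33 ± 0.27 and SQSTM1, the autophagy receptor p62, by 0.72 ± 0.14, and KEAP1, the inhibitor of NRF2, fell by 1.07 (SE 0.13). Heat shock genes mostly did not pass, with 2 risen and 3 fallen of 24, or 20.8% called. DNAJB4, a co-chaperone, rose by 1.69 ± 0.13 (adjusted p = 5.9e-05). TRIB3 (adjusted p = 0.088) was not called without OCI-LY3, nor SRXN1 (adjusted p = 0.064) without OCI-HBL1, nor TRIB3 (adjusted p = 0.096), SRXN1 (adjusted p = 0.058) and SQSTM1 (adjusted p = 0.051) without OCI-LY10. INSIG1, PPP1R15A and SQSTM1 did not pass on the poly-A scale. DHCR7 was not called with the line as a random block and TRIB3, SRXN1 and SQSTM1 with the 6 arrays fitted alone. The value averaged over probe sets was -0.59 for TFEB and -0.40 for TRIB3 (not called, adjusted p = 0.16). Without shared probe sets the value was 0.84 for MYLIP and 1.89 for SQSTM1.

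Of 19 SR proteins and their kinases 3 rose and 6 fell, or 47.4% called beside 32.1% of all genes. The 3 that rose were the SR kinases CLK1, CLK3 and CLK4, at 1.66 ± 0.18, 0.74 ± 0.11 and 0.83 ± 0.18. CLK1 went from 8.38, 9.16 and 8.74 to 10.49, 10.27 and 10.49, with the groups apart. The 6 that fell were all SR proteins, with SRSF3 from 12.90, 12.87 and 12.91 to 11.86, 11.96 and 11.52 (fall 1.11, SE 0.13, adjusted p = 0.00028) and SRSF8 and SRSF7 by 1.496 (SE 0.15) and 0.81 (SE 0.12). SRSF3 has 1 other probe set that was called in the opposite direction. Against CPI203 alone, where 4.66% of all genes were called in either direction, 3 members of the list were higher and 6 lower. CLK1 was at 1.02 ± 0.18 (adjusted p = 0.019) and SRSF3 at -0.68 ± 0.13 (adjusted p = 0.021). CLK3 and CLK4 did not pass on the poly-A scale. With all probe sets of a gene averaged the change was 0.48 for CLK3 and 0.50 for CLK4.

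Interferon-stimulated genes fell in 19 of 38 cases and rose in 2, or 55.3% called beside 32.1% of all genes. Their median was -0.73, with medians of -0.51, -0.92 and -1.18 in the lines. PARP9, which works with DTX3L in the antiviral response, went from 9.02, 7.53 and 8.69 to 6.22, 5.61 and 6.57, and GBP1, a guanylate-binding protein, from 6.80, 7.81 and 9.38 to 5.03, 6.29 and 6.54. Neither gene had an overlap, and they fell by 2.28 (SE 0.20, adjusted p = 9.5e-05) and 2.05 (SE 0.23, adjusted p = 0.00028). DTX3L and SAMD9L, another antiviral gene, fell by 2.01 (SE 0.22) and 2.18 (SE 0.19). MHC class II genes fell in 5 of 18 cases and class I antigen processing genes in 5 of 18, with no rise in either list (2 and 1 at an unadjusted p below 0.05 in limma). In each list 27.8% were thus called, all of them fallen, beside 32.1% called and 16.7% fallen of all genes. HLA-DMB, which loads peptides onto class II, went from 10.19, 9.56 and 10.07 to 8.83, 8.003 and 8.45, and its fall of 1.51 (SE 0.16, adjusted p = 0.00021) left the groups apart. TAPBPL, a peptide editor of class I, fell by 1.37 (SE 0.21) and NLRC5, the activator of class I genes, by 1.12 (SE 0.29). RFX5 and RFXAP, subunits of the factor that turns on class II genes, fell by 1.18 (SE 0.18) and 1.11 (SE 0.18). NLRC5 (-0.64, adjusted p = 0.12) was not called without OCI-LY3, nor NLRC5 (adjusted p = 0.10) without OCI-LY10. NLRC5 was not called with the 6 arrays fitted alone. Averaging the probe sets of a gene gave a change of -1.45 for SAMD9L and -0.90 for TAPBPL. With shared probe sets left out the change was -0.44 for TAPBPL (not called, adjusted p = 0.079).

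Of 28 proteasome genes 1 rose and 3 fell, of 28 respiratory chain genes 1 rose and 1 fell, and of 27 glycolysis and hypoxia genes 2 rose and 3 fell. HK2 and PFKM, which catalyse early steps of glycolysis, fell by 0.87 (SE 0.18) and 0.73 (SE 0.12), and PSMB5, the catalytic proteasome subunit that bortezomib blocks, by 0.60 (SE 0.10). The shares called were 14.3%, 7.14% and 18.5%, beside 32.1% of all genes. Mediator and Integrator genes had 12 risen and 10 fallen of 42, or 52.4% called. MED31, a core Mediator subunit, was at 1.13 ± 0.12 and INTS3, an Integrator subunit, at -1.19 ± 0.16. Among histone-modifying enzymes 9 of 36 rose and 4 fell, or 36.1% called, near the 32.1% of all genes. KDM5B, a histone demethylase, and SIRT1, a deacetylase, rose by 1.47 ± 0.18 and 1.09 ± 0.13, while KAT5, an acetyltransferase, and NSD1, a methyltransferase, fell by 1.47 (SE 0.17) and 1.46 (SE 0.22). PFKM (adjusted p = 0.051) and PSMB5 (adjusted p = 0.058) were not called without OCI-LY3, nor HK2 (adjusted p = 0.072) without OCI-LY10. The mean over probe sets was -0.57 for INTS3 and -0.90 for NSD1. Leaving out shared probe sets gave a change of -0.85 for NSD1.

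**Figure D5:**
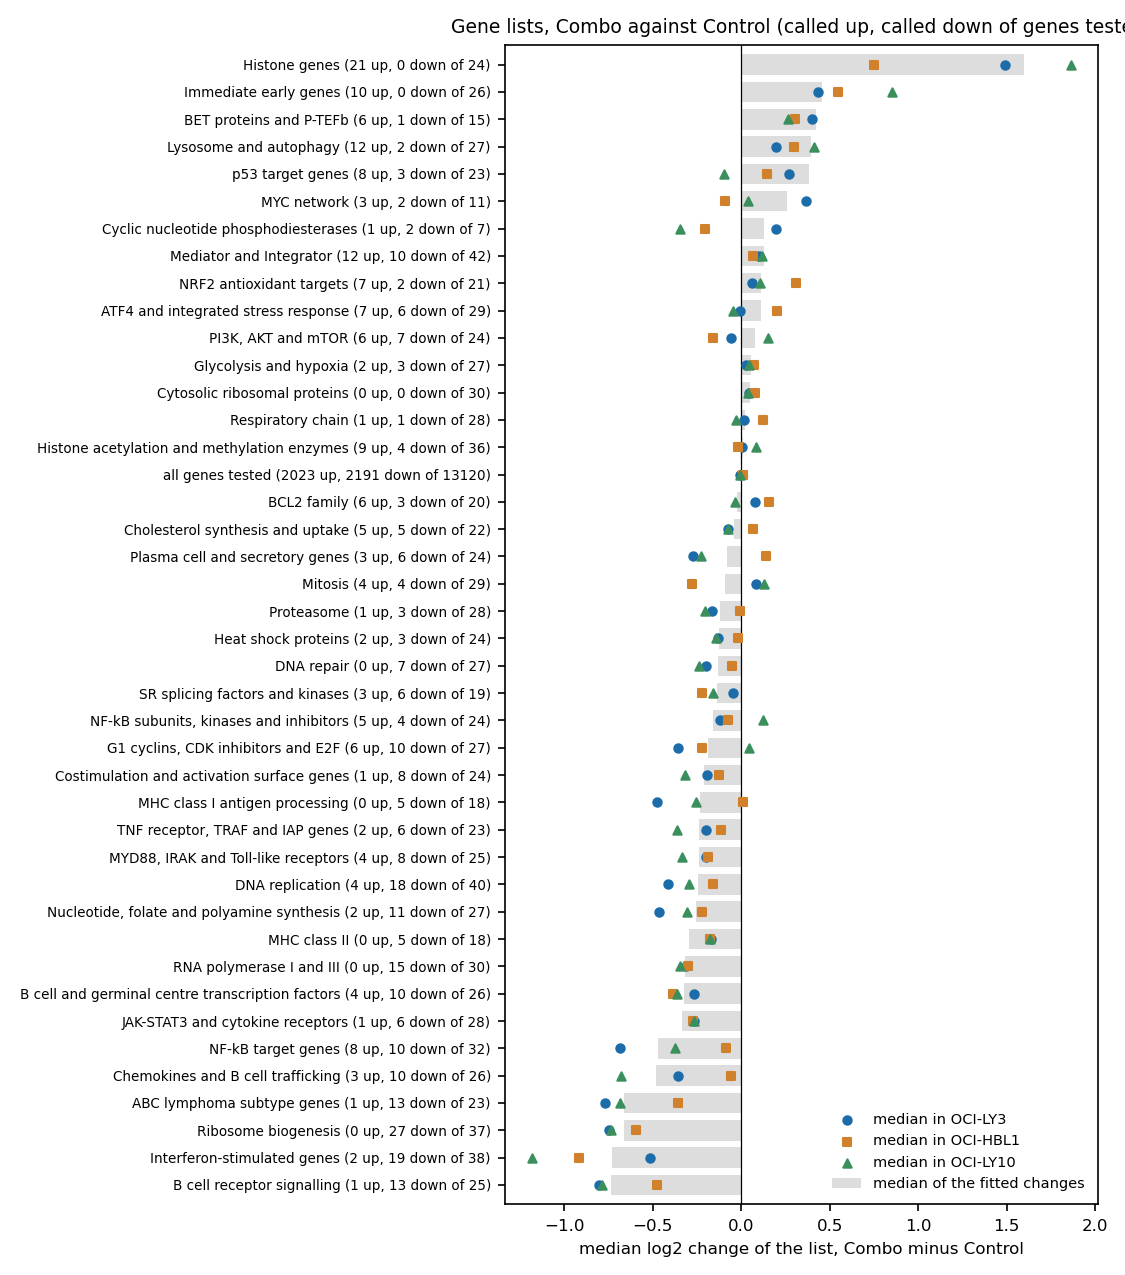
Grey bars give the median log2 change from Control to Combo of each gene list and coloured points the medians in the 3 lines, with the counts called up and down beside each name. Histone genes are highest at a median of 1.60, and B cell receptor signalling and interferon-stimulated genes are lowest, both at -0.73. On the poly-A scale the medians of the BET, immediate early, lysosome, p53 and 10 other lists with medians above 0 turn negative.

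The largest rises of all were those of DHRS2, a short-chain reductase, and MSH4, a meiotic recombination gene. DHRS2 went from 4.22, 4.23 and 4.07 in Control to 6.14, 8.11 and 10.23 with Combo, and MSH4 from 3.20, 3.49 and 3.71 to 7.52, 6.64 and 8.13. Control arrays of both were near the floor, and the rises were 3.99 ± 0.66 (adjusted p = 0.0018) and 3.96 ± 0.32 (adjusted p = 8.0e-05). TUBB3, a tubulin of neurons, rose from 7.85, 6.22 and 5.40 to 10.04, 9.55 and 9.58 (3.23 ± 0.29), and SERTAD1, a cofactor of E2F and CDK4, from 6.90, 6.59 and 6.07 to 10.22, 9.07 and 9.72 (3.15 ± 0.27). No Combo array of these 4 genes lay within the Control range. Among the falls, CACNA1A, a calcium channel subunit, went from 7.72, 8.22 and 10.92 to 4.48, 5.32 and 7.02 (-3.35 ± 0.26), KLHL14, a kelch protein, from 8.82, 7.32 and 6.73 to 4.86, 4.15 and 3.67 (-3.40 ± 0.27) and MYOCD, a cofactor of serum response factor, from 11.24, 8.61 and 9.67 to 8.91, 5.20 and 5.55 (-3.29 ± 0.33). The groups overlapped for MYOCD and not for the other two. The largest moderated t values without regard to sign, a change over its error, were those of ARID5B, RCN1, HSH2D, PGM2L1, CILP and TRAF5. RCN1, a calcium-binding protein of the endoplasmic reticulum, fell from 9.004, 9.18 and 9.34 to 6.43, 6.9 and 7.24, and HSH2D, an adaptor of lymphocytes, from 8.52, 7.52 and 7.15 to 5.62, 5.06 and 4.08. Their falls were 2.32 (SE 0.12, adjusted p = 2.2e-05) and 2.80 (SE 0.15, adjusted p = 2.3e-05). CILP, a matrix protein of cartilage, rose from 3.72, 3.98 and 3.82 to 5.52, 5.85 and 5.76, and PGM2L1, a sugar phosphate mutase, from 6.69, 4.11 and 5.24 to 8.67, 6.15 and 7.495, by 1.87 ± 0.10 and 2.09 ± 0.11. The rest of the 15 highest rises held CFAP70 at 2.64 ± 0.29, FAM222A at 2.67 ± 0.24, LSMEM1 at 2.78 ± 0.24, ST8SIA5 at 2.73 ± 0.25 and ZNF333 at 2.77 ± 0.30. The rest of the 15 largest falls held IQSEC1 at -2.90 ± 0.34, RAB33A, a small GTPase of lymphocytes, at -2.90 ± 0.26, ZMYND8, a chromatin reader, at -2.85 ± 0.29, SASH3, a lymphocyte adaptor, at -2.84 ± 0.32 and KIF26B, a kinesin, at -2.70 ± 0.27. The value averaged over probe sets was -1.92 for KLHL14, -1.82 for MYOCD, -1.85 for HSH2D, 1.62 for FAM222A, 1.72 for ST8SIA5, 1.05 for ZNF333, -1.71 for IQSEC1, -1.65 for ZMYND8 and -0.63 for KIF26B. Without shared probe sets the value was -0.89 for HSH2D and 0.56 for FAM222A.

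Among called genes the widest ranges of the change over the lines were those of CXCL10, FOS, IL12B, DHRS2, IL4I1 and H2BC8. IL12B, the p40 subunit of IL-12, changed by -3.13, 0.03 and -4.36 (-2.48 ± 0.76, adjusted p = 0.032), and its OCI-HBL1 arrays were both at the floor. IL4I1, an amino acid oxidase, changed by -4.47, -2.48 and -0.29 (-2.41 ± 0.60, adjusted p = 0.012), with OCI-LY10 near the floor in Control. FRMD4A, a scaffold protein, changed by -3.92, -0.43 and -4.01 (-2.79 ± 0.70, adjusted p = 0.013), and OCI-HBL1 was at the floor already in Control. SPIB, a B cell transcription factor, changed by -4.50, -1.23 and -0.65 (-2.13 ± 0.59, adjusted p = 0.020), with the largest step in OCI-LY3. A line by Combo term in the fit of all 12 arrays was added after the data were seen and leaves 4 residual degrees of freedom. It sets the Combo array of each line against the mean of its Control, CPI203 and IRAK inhibitor arrays. For this term limma called 0 of 13120 genes (1307 at an unadjusted p below 0.05), and the lowest adjusted p was 0.28. Whether the change from Control alone differed between the lines was not tested. IL12B (adjusted p = 0.18), IL4I1 (-1.38, adjusted p = 0.11) and FRMD4A (adjusted p = 0.17) were not called without OCI-LY3, nor IL4I1 (adjusted p = 0.091) and SPIB (adjusted p = 0.066) without OCI-HBL1, nor IL12B (-1.55, adjusted p = 0.26) and FRMD4A (adjusted p = 0.10) without OCI-LY10. The change of IL12B was -3.74 without OCI-HBL1 and that of SPIB -0.94 without OCI-LY3. IL12B and SPIB were not called with trend and robust estimation, IL12B with the line as a random block and IL12B, IL4I1, FRMD4A and SPIB with the 6 arrays fitted alone.

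Combo differed from CPI203 alone, at the same dose and label time, in 612 genes, of which 257 were higher and 355 lower with Combo. Limma called no gene when OCI-LY3 was left out (1805 at an unadjusted p below 0.05, against 2723 with all lines), none when OCI-LY10 was (1853) and 3 when OCI-HBL1 was. TNFSF13B was among the genes that were furthest apart, at 2.33 ± 0.31 (adjusted p = 0.0095), against a change of 0.25 ± 0.31 with CPI203 alone. MSH4 differed by 2.4 ± 0.32 (adjusted p = 0.0095), CILP by 1.403 ± 0.10 (adjusted p = 0.0019) and NR4A3, an early-response nuclear receptor, by 1.58 ± 0.36 (adjusted p = 0.041). Lower with Combo than with CPI203 were BMF at -1.48 ± 0.15 (adjusted p = 0.0050), ARID5B at -1.38 ± 0.17 (adjusted p = 0.0080), KCNA3 at -1.31 ± 0.18 (adjusted p = 0.0095), CD79B at -1.16 ± 0.21 (adjusted p = 0.021) and HLA-DMB at -1.04 ± 0.16 (adjusted p = 0.012). For other genes with large changes from Control the difference from CPI203 did not pass, with TNFRSF17 at 0.08 ± 0.29, CD72 at 0.13 ± 0.32, GBP1 at 0.31 ± 0.23, IL2RB at -0.14 ± 0.25 and H2BC5 at 0.43 ± 0.18 (adjusted p between 0.21 and 0.93).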

How the data were processed

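RNA of each culture was measured on 1 Affymetrix array. The authors deposited log2 values made by RMA in Affymetrix Expression Console 1.1, per the submitters' processing notes, and RMA scales all arrays to 1 distribution, so that a change of total RNA is not seen. The probe library build is not given in the sources used here. Probe sets were named from the platform annotation: of 49386, 45253 have 1 gene, 1327 several and 2713 none, and 93 are controls. A gene took its probe set with the highest mean over the 12 arrays, and was tested where it exceeded the 40th percentile of all values in at least 3 arrays.

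Limma 3.58.1 in R 4.3.3 was fitted to all 12 arrays with group and cell line as terms and Benjamini-Hochberg adjustment over 13120 genes. The fit of the 4 groups shares 1 estimate of spread, with 6 residual degrees of freedom. The pairing comes from the line names: deviations from the group means of a line's 2 arrays correlated at 0.819 to 0.826, and those of different lines at -0.457 to -0.351. Deviations within a group cancel out, so the negative values follow from the positive ones and add no evidence for the pairing. The fit was tested on simulated data. A line by Combo term with 4 residual degrees of freedom was added after the data were seen. Alternatives were other probe set rules, filters, scalings and error models, and leaving out each line.

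Named genes were the 15 highest and 15 lowest changes that had 1 direction in all lines, up to 4 called members of each list in each direction, a fixed set of pathway genes called or not, and the 6 with the widest range over the lines and the 6 with the largest moderated t. Genes on the Y chromosome and XIST were left out. Not all genes so named are described. The comparison, the lists and the fixed set were chosen with earlier results of these data known, so counts in lists are descriptions, read beside the share of all genes called. Promoters are those of RefSeq (GRCh38.p14), at the first start listed for a symbol, with 10679 of 13120 genes matched. SERPINA9 and MME were added after their values were seen. Some genes of the fixed set are not reported here.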

Additional observations from a re-analysis of the deposited data

Results flagged for a closer look

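Among the genes named, 6 were higher by more than 0.5 (log2) in one line and lower by more than 0.5 in another. The line by Combo term of limma, added after the data were seen, called none of the 6. Its unadjusted p was 0.00040 for IRAK3, 0.0056 for BCL2L1, 0.023 for IL10 and 0.053 to 0.21 for the others, and adjusted p-values were 0.28 to 0.66. That term sets Combo against the mean of the other groups, not against Control alone, so it cannot decide whether these changes from Control differ between lines. The range of the log2 change over the lines was 3.71 for IL10, with -3.10, -0.78 and 0.61 in the lines, in the order used throughout. It was 2.63 for IRAK3, the inhibitory IRAK family member, with 0.09, -0.81 and 1.81. It was 2.14 for BCL2L1, with -1.61, 0.53 and -0.78, and 1.36 for BCL2L11, with 0.82, -0.54 and 0.14. For NFKBIZ it was 1.51, with 0.90, -0.61 and 0.71, and for JUN 1.41, with -0.53, 0.52 and 0.87.

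Probe sets assigned to several genes or to none were outside the comparison of genes. Of 2494 such probe sets above the filter limma called 633 between Combo and Control, or 25.4%, with 325 higher and 308 lower. Their largest rise was 3.78 and their largest fall -2.77 on the log2 scale.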

How the results depend on the processing

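The 4214 genes called between Combo and Control became 8817 with every probe set on its own (of 30492 probe sets), 2163 with the 6 arrays fitted alone, 465 with no replicate block and 93 in a test against a fold of 2. Leaving out each line gave 2072 to 3420. The 612 genes called between Combo and CPI203 became 1038, 392 on the poly-A scale, 954 with trend and robust estimation, 2 with no replicate block and 0 in the test against a fold of 2 (36 at an unadjusted p below 0.05 in limma), and 0 to 3 without each line. The block pairs arrays of a line, so its removal adds the differences between lines to the error. The other alternatives gave 3682 to 6229 genes for Combo against Control, and 466 to 813 for Combo against CPI203. Of the 172 called genes among the 197 named, 31, 13 and 32 lost their call without OCI-LY3, OCI-HBL1 and OCI-LY10, 21 on the poly-A scale and 28 with the 6 arrays alone. TOLLIP was the 1 called gene whose direction turned. On the poly-A scale the changes that turned were BCL2 -0.30, BCL2L11 -0.34, BRD3 -0.16, CD274 -0.41, IRAK2 -0.36, IRAK3 -0.12, JUN -0.19, MAX -0.22, NFKB1 -0.32, NFKBIZ -0.15, PAX5 -0.33, RELA -0.41 and TOLLIP -0.016. With probe sets of 1 gene averaged they were BCL2 -0.16, BCL2L11 -0.068, CD274 -0.032, PAX5 -0.46 and RELA -0.055, and with shared probe sets left out RELA -0.077. Among genes that did not pass, the change turned without 1 line in the following, which ranged over the 3 omissions for BCL2 from -0.047 to 0.36, BCL2L11 from -0.20 to 0.48, BCL6 from -0.17 to 0.017, CD274 from -0.041 to 0.12, CD40 from -0.13 to 0.031, IRAK2 from -0.035 to 0.30, IRAK3 from -0.36 to 0.95, JUN from -0.0095 to 0.69, NFKB1 from -0.050 to 0.31, PAX5 from -0.17 to 0.31, RELA from -0.12 to 0.21 and STAT3 from -0.42 to 0.099. For the turned changes other than those set by a left-out line the cause was not tested. The number of arrays limits the precision of every value.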
